A study of Mus musculus with 4 samples.

Results

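The genes that take dietary fat through the enterocyte and the genes that burn fatty acids were followed in the intestinal epithelial cells (IEC) and Peyer's patches (PP) of mice colonized with 1 bacterium and of germ-free (GF) mice. The 35 genes were taken by symbol, with no limit on their signals, and every probe set annotated to a symbol was used. They are 35 of the 18193 genes on the array and carry 56 probe sets. Of them, 26 act in uptake, triglyceride synthesis, lipid droplets and chylomicrons, and 9 act in oxidation or its control. By the brightest probe set of each gene, Apob and Cd36 were more than 2-fold lower in the epithelial cells of colonized mice and Pparg was more than 2-fold higher. By the mean over probe sets neither Apob nor Cd36 was past 2-fold, and Pparg rested on 1 probe set. In these cells 29 of the 35 genes were below their GF signal, beside 47.6% of all measured genes. Relative to enterocyte markers 9 of the 29 were also lower, most by less than the median log2 gap between probe sets of 1 gene (0.28).

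The study asked what Lactobacillus NK318.1 changes in the intestine. C57BL/6 GF mice kept in vinyl isolators were monocolonized with 100000000 Lactobacillus NK318.1, and IEC and PP were isolated 2 weeks later from these mice (NK318.1 IEC, NK318.1 PP) and from GF mice without the bacterium (GF IEC, GF PP). Each of the 4 groups gave 1 Affymetrix 3′ expression array of RNA that the study describes as pooled samples, and it describes the epithelial cells as those of the ileum. The age of the mice was not given for these arrays, both states shared the strain, and the labels name no other agent or allele. The study describes the GF controls as kept separately under similar conditions, so separate housing and colonization cannot be told apart.

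Long-chain fatty acids and monoglycerides enter enterocytes through and across the apical membrane, are carried by binding proteins and activated to acyl-CoA, and are rebuilt to triglyceride in the endoplasmic reticulum. There, microsomal triglyceride transfer protein loads the triglyceride onto apolipoprotein B, and the resulting chylomicron leaves in large COPII vesicles for the lymph. A share of the fatty acids is instead oxidized in mitochondria and peroxisomes, a branch under the control of the nuclear receptor PPARα.

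Values are MAS5 signals, in linear intensity units, and a ratio is the log2 of NK318.1 over GF within a tissue. Signals under a floor of 15.5 were raised to it. A ratio with 1 array under the floor is a bound, and no ratio was given with both under it. With 1 array per group there was no replicate, no test and no error of a mean, so a gene was counted at 2-fold, the fold limit of the study's methods, and each ratio compares 2 pools. Median signals of the 4 arrays lay between 23.0 and 23.3, and 59.1% to 61.0% of probe sets were above the floor. The 3′ probe set of β-actin was 4.10 times as bright as the 5′ one in NK318.1 IEC, 2.73 times in GF IEC, 1.74 times in NK318.1 PP and 1.60 times in GF PP. This ratio grows as RNA breaks, and its part in the epithelial values was not tested. Xist, which is expressed from the inactive X chromosome of female cells, had a signal of 4889 in NK318.1 IEC and 46.7 in GF IEC and of 4586 in NK318.1 PP and 21.7 in GF PP, so the sex of the pools and colonization cannot be told apart. In RNA of whole cell preparations, fewer cells of a type and less RNA per cell cannot be told apart either.

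All 35 genes lay above the floor in both epithelial arrays. In the epithelial cells 0 of the 26 uptake and chylomicron genes were at least 2-fold higher and 2 were at least 2-fold lower in NK318.1 mice, beside 2.63% and 1.54% of 13874 measured genes. At a limit of 1.5-fold 9 of the 26 were lower, beside 6.8% of all measured genes, and 22 of the 26 lay below 0, beside 47.6%. Their median log2 ratio was −0.48, so that the median gene had 71.9% of its GF signal, whereas the median over all measured genes was 0.02. Of the 9 genes of oxidation or its control, 1 was at least 2-fold higher, the receptor gene Pparg. At least 2-fold lower were 0 and at least 1.5-fold lower 2, with 7 below 0 and a median of −0.28. The 5 oxidation enzymes among them all lay below 0, with a median of −0.43.

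These directions were relative to the whole array, and the enterocyte markers differed between the 2 epithelial pools. Over 16 enterocyte markers that include no gene of the set, among them Vil1, Lct and Treh, the summed signal was 11593 in NK318.1 IEC and 18740 in GF IEC, or 61.9%. Of these markers 4 were at least 2-fold lower and 15 lay below 0, with a median log2 ratio of −0.68. When ratios were centred on that median, which moved every epithelial ratio up by 0.68, the uptake and chylomicron genes had a median of 0.20 and the oxidation genes of 0.40. On this scale 9 of the 35 genes stayed below 0, and they were Cd36 (−0.57), Apob (−0.39), Mogat2 (−0.24), Pdk4 (−0.22), Apoc3 (−0.15), Tm6sf2 (−0.12), Apoa1 (−0.09), Cideb (−0.07) and Ehhadh (−0.01). This scale rests on the 16 markers and not on the epithelium as a whole. Over 605 genes outside the set that were at least 8-fold higher in IEC than in PP by the mean of both states, the median log2 ratio was −0.19. The medians of the uptake and chylomicron genes (−0.48) and of the oxidation genes (−0.28) were lower than that. Some of the 605 passed through NK318.1 IEC alone, such as the gastric gene Gkn2 (9.33). Such genes raise the median of the 605, so it is not an even reference. The part of enterocyte content in the lower signals was not tested.

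**Figure D1:**
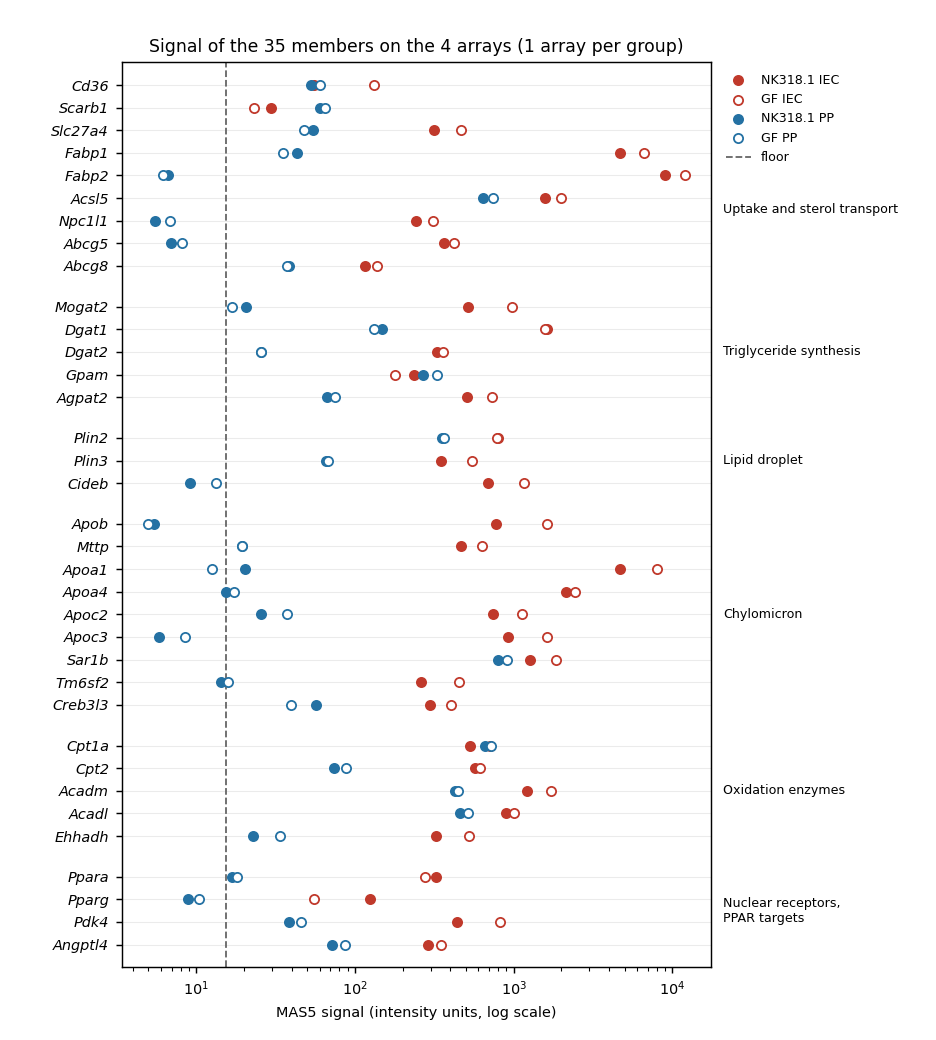
MAS5 signal (x axis, intensity units, log scale) of the 35 genes by role, 1 point per array, with NK318.1 filled and GF open, IEC in red and PP in blue, and the floor of 15.5 as a dashed line. In IEC the filled point lies left of the open one for 29 of 35 genes, 9 of which stay lower when ratios are centred on enterocyte markers, and in PP both points mostly lie close together.

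Promoter windows were looked up in RefSeq for the mouse build GRCm38.p6, from 250 bases before to 50 bases after each start site, and 28 of the 35 genes had at least 1 window. The half-site of nuclear receptors, AGGTCA on either strand, which PPARs bind as a repeat of 2, lay in a window of 10 of these 28 genes (35.7%) and of 4900 of 27025 genes overall (18.1%). The 10 genes were Acadm, Apoc2, Cd36, Cpt1a, Creb3l3, Fabp1, Gpam, Npc1l1, Plin2 and Pparg. A match describes these letters and not a bound site, and the 10 genes hold both directions of ratio, from Cd36 to Pparg. The windows below are those of the 3 genes past 2-fold in IEC and of Fabp1, which like Apoc2 holds 2 matches, with AGGTCA or its reverse complement TGACCT in capitals. Those of Cd36 (chr5:17835847-17836146, minus strand) and Fabp1 (chr6:71199629-71199928, plus strand) start their matches 228 bases before the start site and 67 and 9 bases before it. That of Pparg (chr6:115362099-115362398, plus strand) is 1 of 3 windows of this gene, 2 of which hold a match, and has it 9 bases before the start, and that of Apob (chr12:7977427-7977726, plus strand) holds none.
Cd36: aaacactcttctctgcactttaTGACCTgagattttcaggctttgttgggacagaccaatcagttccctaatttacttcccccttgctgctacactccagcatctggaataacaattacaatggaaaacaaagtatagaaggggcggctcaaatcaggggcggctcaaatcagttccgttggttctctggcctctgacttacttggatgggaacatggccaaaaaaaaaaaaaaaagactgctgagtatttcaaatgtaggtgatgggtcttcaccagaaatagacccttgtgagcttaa
Fabp1: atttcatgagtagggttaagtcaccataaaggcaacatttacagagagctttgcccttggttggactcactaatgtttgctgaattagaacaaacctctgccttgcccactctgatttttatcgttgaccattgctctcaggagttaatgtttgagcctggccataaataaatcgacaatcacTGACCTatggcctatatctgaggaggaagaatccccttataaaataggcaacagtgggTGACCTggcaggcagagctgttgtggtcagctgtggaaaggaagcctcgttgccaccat
Pparg: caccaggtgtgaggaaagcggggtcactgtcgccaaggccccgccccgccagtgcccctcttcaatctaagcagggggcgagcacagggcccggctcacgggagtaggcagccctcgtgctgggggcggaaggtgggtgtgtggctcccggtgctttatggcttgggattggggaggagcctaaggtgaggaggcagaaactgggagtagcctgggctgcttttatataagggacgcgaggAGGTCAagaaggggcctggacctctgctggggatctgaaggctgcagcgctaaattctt
Apob: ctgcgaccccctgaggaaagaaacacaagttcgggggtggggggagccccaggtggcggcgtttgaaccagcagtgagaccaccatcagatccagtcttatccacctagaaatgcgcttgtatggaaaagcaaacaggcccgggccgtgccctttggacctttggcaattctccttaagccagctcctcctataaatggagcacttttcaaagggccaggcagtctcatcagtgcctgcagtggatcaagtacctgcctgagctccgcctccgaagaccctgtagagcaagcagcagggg

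Of the 3 genes of uptake at the apical membrane, Cd36 and Slc27a4 were lower and Scarb1 was higher in the epithelial cells of NK318.1 mice, while on the enterocyte scale only Cd36 stayed below 0. Cd36, the scavenger receptor that binds long-chain fatty acids, had a signal of 55.5 in NK318.1 IEC and 132 in GF IEC, and of 53.1 in NK318.1 PP and 60.1 in GF PP. By this probe set GF IEC was the array that stood apart and the other 3 were alike, and the log2 ratio was −1.25 in IEC and −0.18 in PP. A second probe set of Cd36 had 44.6 in NK318.1 IEC and 77.7 in GF IEC (−0.80), and 1 more had 11.3, under the floor, in NK318.1 IEC and 21.2 in GF IEC, which bounds the ratio at −0.45 or lower. With the mean over its probe sets Cd36 stood at −0.83 and was not past 2-fold. Slc27a4, which encodes the fatty acid transport protein FATP4, had 315 in NK318.1 IEC and 465 in GF IEC (−0.56), and 54.3 in NK318.1 PP and 47.5 in GF PP (0.19). Scarb1, the receptor SR-BI for lipoproteins and sterols, had 29.6 in NK318.1 IEC and 23.1 in GF IEC, and 60.4 in NK318.1 PP and 65.0 in GF PP. Its signals were low in the epithelial arrays, where the ratio was 0.36 and 1 other probe set gave a bound of at least 0.48.

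Inside the cell, both fatty acid-binding proteins were lower in NK318.1 IEC, though not on the enterocyte scale. Fabp1, the liver-type binding protein, had 4666 in NK318.1 IEC and 6604 in GF IEC, a log2 ratio of −0.50, with −0.47 from its second probe set. Fabp2, the intestinal-type binding protein, had 8958 in NK318.1 IEC and 11920.1 in GF IEC (−0.41), and only 6.62 in NK318.1 PP and 6.17 in GF PP, both under the floor. Acsl5, an acyl-CoA synthetase that activates fatty acids, had 1577 in NK318.1 IEC and 1995 in GF IEC (−0.34), and 642 in NK318.1 PP and 739.7 in GF PP (−0.20). All 3 were lower by less than 1.5-fold, and on the scale of the enterocyte markers their ratios were 0.18, 0.26 and 0.34.

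The sterol transporters were also lower in NK318.1 IEC, by less than 1.5-fold, though not on the enterocyte scale. Npc1l1, which takes up cholesterol and is the target of ezetimibe, had 244 in NK318.1 IEC and 311 in GF IEC, a log2 ratio of −0.35 that was 0.33 on the enterocyte scale. Abcg5 and Abcg8 encode the subunits of the pump that returns plant sterols to the lumen. Abcg5 had 366 in NK318.1 IEC and 418 in GF IEC (−0.19), and Abcg8 had 116 in NK318.1 IEC and 138 in GF IEC (−0.25). The pair is transcribed away from a shared region, and their start sites lie 110 bases apart, so that the 300-base window of Abcg5 (chr17:84682962-84683261, minus strand) shares 209 bases, in capitals, with 1 window of Abcg8. In PP the signals of Npc1l1 and Abcg5 were under the floor in both states, while Abcg8 had 38.4 in NK318.1 PP and 37.4 in GF PP. Over the 9 genes of uptake and sterol transport, 1 was at least 2-fold lower, 8 lay below 0 and the median was −0.35, which became 0.33 on the enterocyte scale.
Abcg5 and Abcg8: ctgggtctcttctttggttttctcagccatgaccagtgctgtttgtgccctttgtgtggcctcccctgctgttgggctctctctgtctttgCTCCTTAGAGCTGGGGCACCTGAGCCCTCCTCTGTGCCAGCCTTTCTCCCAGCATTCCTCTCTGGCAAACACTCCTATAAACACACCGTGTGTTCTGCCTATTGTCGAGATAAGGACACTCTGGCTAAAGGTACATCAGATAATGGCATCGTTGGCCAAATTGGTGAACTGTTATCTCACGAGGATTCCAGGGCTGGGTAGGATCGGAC

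Of the enzymes that rebuild triglyceride, the first of the monoglyceride route stood apart from those of the last step. Mogat2, the monoacylglycerol acyltransferase of enterocytes, had 513 in NK318.1 IEC and 971 in GF IEC, or 52.9% (log2 ratio −0.92), and 20.7 in NK318.1 PP and 16.9 in GF PP (0.29). Dgat1, which adds the last fatty acid, had 1622 in NK318.1 IEC and 1581 in GF IEC (0.04), with 0.39 from a second probe set. Dgat2, which catalyses the same step, had 328 in NK318.1 IEC and 359 in GF IEC (−0.13), with −0.01 from a second probe set. Dgat1 and Dgat2 thus stood at 103% and 91.5% of GF, and Mogat2 at 52.9%. Agpat2, of the glycerol phosphate route, had 509 in NK318.1 IEC and 734 in GF IEC (−0.53). Gpam, the mitochondrial acyltransferase that opens that route, had 236 in NK318.1 IEC and 179.9 in GF IEC (0.39), and 267 in NK318.1 PP and 331 in GF PP (−0.31). The median of the 5 enzymes was −0.13, or 0.55 on the enterocyte scale.

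Among the proteins of the lipid droplet surface, Plin2 differed from the other two. Plin2, whose protein is stabilized by stored lipid, had 802 in NK318.1 IEC and 787 in GF IEC (log2 ratio 0.03), and 352 in NK318.1 PP and 362 in GF PP (−0.04). Plin3, a coat protein that moves to new droplets from the cytosol, had 349.7 in NK318.1 IEC and 549 in GF IEC (−0.65). Cideb, which takes part in lipidating chylomicrons and very low-density lipoproteins, had 691 in NK318.1 IEC and 1156 in GF IEC (−0.74), and was under the floor in both PP arrays. On the enterocyte scale the ratio of Plin2 was 0.70, that of Plin3 0.03 and that of Cideb −0.07.

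The chylomicron genes had lower signals in the epithelial cells of NK318.1 mice, with a median near that of the enterocyte markers. All 9 lay below 0, 5 were at least 1.5-fold lower and 1 at least 2-fold, with a median log2 ratio of −0.61, while 4 of 9 stayed below 0 on the enterocyte scale, with a median of 0.07. Apob, the structural protein of the particle, had 774 in NK318.1 IEC and 1622 in GF IEC (−1.07), and was under the floor in both PP arrays. A second probe set of Apob had only 89.9 in NK318.1 IEC and 101 in GF IEC (−0.17), so the 2 probe sets were 0.90 apart and only the brighter 1 was past 2-fold. Their mean was −0.62. Mttp, the transfer protein that loads Apob, had 463 in NK318.1 IEC and 633 in GF IEC (−0.45), with −0.66 from its second probe set, and 19.5 in NK318.1 PP and 19.4 in GF PP. Tm6sf2, a membrane protein needed for lipidation, had 261 in NK318.1 IEC and 453 in GF IEC (−0.80). Sar1b, the GTPase of the COPII coat that carries chylomicrons out of the endoplasmic reticulum, had 1272 in NK318.1 IEC and 1841 in GF IEC (−0.53), and 798 in NK318.1 PP and 908 in GF PP.

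The exchangeable apolipoproteins of the particle surface were lower to unlike degrees. Apoa1, the main protein of high-density lipoprotein, had 4651 in NK318.1 IEC and 7939 in GF IEC (log2 ratio −0.77), and its other 3 probe sets gave −0.74 to −0.88. Apoc3, an inhibitor of lipoprotein lipase, had 917 in NK318.1 IEC and 1632 in GF IEC (−0.83), and Apoc2, the activator of that lipase, had 739 in NK318.1 IEC and 1125 in GF IEC (−0.61). The inhibitor and the activator were thus both lower, at 56.2% and 65.7% of GF. Apoa4, which is made when fat is absorbed, had 2131 in NK318.1 IEC and 2441 in GF IEC (−0.20), with −0.58 from its second probe set. Creb3l3, a membrane-bound transcription factor of liver and intestine that drives apolipoprotein genes, had 295 in NK318.1 IEC and 402 in GF IEC (−0.45). In PP it had 56.6 in NK318.1 mice and 39.9 in GF mice (0.50).

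The 5 enzymes of oxidation all lay below 0 in the epithelial cells, none by 2-fold, with a median log2 ratio of −0.43 that was 0.24 on the enterocyte scale. Ehhadh, the bifunctional enzyme of peroxisomes, was lowest, at 323 in NK318.1 IEC and 521 in GF IEC (−0.69), and it was also lower in PP, at 22.7 in NK318.1 mice and 33.9 in GF mice (−0.58). Acadm, the medium-chain acyl-CoA dehydrogenase, had 1208 in NK318.1 IEC and 1707 in GF IEC (−0.50), and 426 in NK318.1 PP and 448 in GF PP (−0.07). Acadl, its long-chain counterpart, had 891 in NK318.1 IEC and 1008 in GF IEC (−0.18), and 458 in NK318.1 PP and 518 in GF PP (−0.18). The mitochondrial enzyme for medium chains thus had a lower ratio in IEC than the one for long chains. Cpt1a, the carnitine palmitoyltransferase that admits acyl groups to mitochondria, had 528 in NK318.1 IEC and 714 in GF IEC (−0.43), with −0.46 and −0.12 from other probe sets. Cpt2, which restores acyl-CoA inside, had 569 in NK318.1 IEC and 617 in GF IEC (−0.12).

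The nuclear receptors and fasting-induced PPAR targets pointed both ways, with a median of −0.03 over 4 genes, which was 0.65 on the enterocyte scale. Pparg, the receptor PPARγ that drives fat storage in adipocytes and is also made in epithelium, had 125 in NK318.1 IEC and 55.5 in GF IEC, or 225% (log2 ratio 1.17), and was under the floor in both PP arrays. It was past 2-fold upward in every setting but a 4-fold limit and the one that leaves out less specific probe sets, since its single probe set covers alternative transcripts. Ppara, the receptor PPARα, had 323 in NK318.1 IEC and 277 in GF IEC (0.22), while 2 other probe sets gave 0.00 and −0.10. Pdk4, a kinase that turns off pyruvate oxidation in fasting, had 443 in NK318.1 IEC and 823 in GF IEC, or 53.8% (−0.89), and 38.4 in NK318.1 PP and 45.6 in GF PP (−0.25). Angptl4, a secreted inhibitor of lipoprotein lipase that is a known target of the microbiota in the gut, had 289 in NK318.1 IEC and 351 in GF IEC (−0.28). In PP it had 71.2 in NK318.1 mice and 86.0 in GF mice (−0.27), a ratio like that in IEC. By their main probe sets the 2 receptors lay above 0 and the 2 target genes below 0 in the epithelial arrays, although Angptl4 reached 0.40 on the enterocyte scale.

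**Figure D2:**
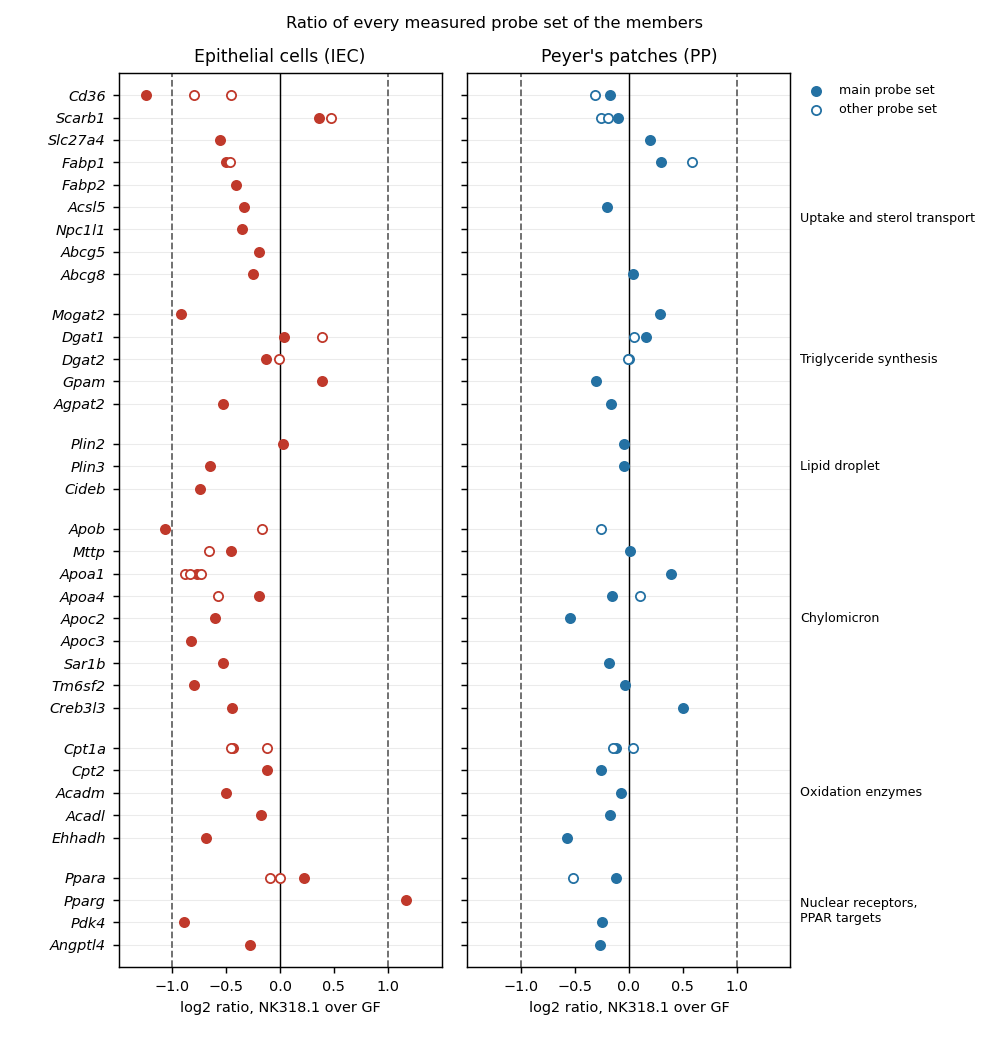
Log2 ratio of NK318.1 over GF (x axis) of the probe sets of each gene in IEC (left, red) and PP (right, blue), with the main probe set filled, other probe sets open, bounds drawn at the bound and 2-fold as dashed lines. Cd36 (−1.25), Apob (−1.07) and Pparg (1.17) pass the lines in IEC and none does in PP, and centring on enterocyte markers would move each red point up by 0.68.

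Probe sets of 1 gene gave the only measure of spread within these arrays. Over 9220 pairs of probe sets of the same gene in IEC, the log2 ratios differed by a median of 0.28, and by 1.00 at the 95th percentile. Among the genes of the set, 14 pairs over 10 genes were measured in IEC, 13 of them had the same sign, and the widest gap was that of Apob. In PP the median difference over 9373 pairs was 0.15 and the 95th percentile 0.52, and 7 of 9 pairs over 7 genes had the same sign. Ratios such as that of Dgat1, Plin2 or Cpt2 in IEC are thus smaller than the median gap between probe sets of 1 gene, and those of Pparg and, by their main probe sets only, Cd36 and Apob are wider than the 95th percentile. Those of Mogat2 and Pdk4 lie inside it. This spread holds no difference between mice.

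In PP none of the 35 genes was past 2-fold in either direction. A ratio could be given for 28 of them, 3 of these as a bound, and 7 were under the floor in both arrays, namely Fabp2, Npc1l1, Abcg5, Cideb, Apob, Apoc3 and Pparg. At least 2-fold higher were 0 of 28, beside 0.149% of 12736 measured genes, and at least 2-fold lower 0, beside 0.573%. At 1.5-fold also 0 were lower, beside 2.74%. Of the 20 uptake and chylomicron genes measured 11 lay below 0, with a median log2 ratio of −0.04, and of the 8 oxidation genes 8 lay below 0, with a median of −0.21, beside 57.2% of all genes below 0 and a median of −0.03. Apoa1 had 20.4 in NK318.1 PP and 12.6, under the floor, in GF PP, a ratio of at least 0.39, and Fabp1 had 43.5 in NK318.1 PP and 35.3 in GF PP (0.30). A second probe set of Fabp1 had 28.5 in NK318.1 PP and 18.9 in GF PP (0.59). Of the 16 enterocyte markers 6 lay above the floor in NK318.1 PP and 5 in GF PP. They summed to 441 in NK318.1 PP and 538 in GF PP, of which Dpp4, which lymphocytes also express, had 265 in NK318.1 PP and 339.5 in GF PP. The other 2 bounds were those of Apoa4 (−0.15 or lower) and Tm6sf2 (−0.04 or lower). Ehhadh (−0.58) and Apoc2, with 25.6 in NK318.1 PP and 37.4 in GF PP (−0.55), were lowest by their main probe sets. Creb3l3 (0.50) was among the highest by main probe sets, beside the bound of Apoa1. Among the 25 genes above the floor on all 4 arrays, 13 were lower in NK318.1 mice in both tissues, 1 was higher in both, 6 were lower in IEC and higher in PP, 4 were higher in IEC and lower in PP, and Dgat2 was at 0 in PP. Relative to the enterocyte markers 20 of the 35 epithelial signs change. Counts of shared direction over all genes were not made. Of all measured genes 47.6% lay below 0 in IEC and 57.2% in PP. Whether the tissues differed was not tested.

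Most of the set was a mark of the epithelium in both states. At least 2-fold higher in IEC than in PP were 29 of 35 genes in NK318.1 mice, beside 18.4% of all measured genes, and 31 of 35 in GF mice, beside 16%. At least 2-fold lower in IEC was 1 of 35 in each state, Scarb1, beside 16.8% and 18.5% of all genes. Fabp2 was at least 578-fold higher in IEC than in PP in NK318.1 mice and at least 769-fold in GF mice, and Fabp1 was 107-fold higher in NK318.1 mice and 187-fold in GF mice. Scarb1 was 2.04-fold lower in NK318.1 IEC than in NK318.1 PP and 2.82-fold lower in GF IEC than in GF PP. Cpt1a, with log2 ratios of IEC over PP of −0.32 in NK318.1 mice and 0.00 in GF mice, and Gpam, with −0.18 in NK318.1 mice and −0.88 in GF mice, were likewise not genes of the epithelium alone. Cd36 was 1.04-fold higher in IEC than in PP in NK318.1 mice and 2.19-fold higher in GF mice.

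Uptake and chylomicron genes at least 8-fold higher in IEC than in PP and those under 8-fold both had medians below 0 in IEC. These medians turned above 0 on the enterocyte scale. Of the 26 uptake and chylomicron genes, 16 were at least 8-fold higher in IEC by the mean of both states, and their median log2 ratio of NK318.1 over GF in IEC was −0.52, against −0.39 in the 10 others. Of the 16 genes 7 were at least 1.5-fold lower (43.8%). Beside them stand 605 genes outside the set that were also at least 8-fold higher in IEC. Of these 20.8% were at least 1.5-fold lower, and their median was −0.19. The 605 include gastric and acinar genes high in NK318.1 IEC, such as Gkn2 (9.33) and Cpa1 (3.54). Such genes lower that share and raise that median. The 3 oxidation genes with the same contrast, Ehhadh, Ppara and Pdk4, had a median of −0.69, and the 6 others of −0.23. Both axes of this comparison hold the same epithelial arrays.

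**Figure D3:**
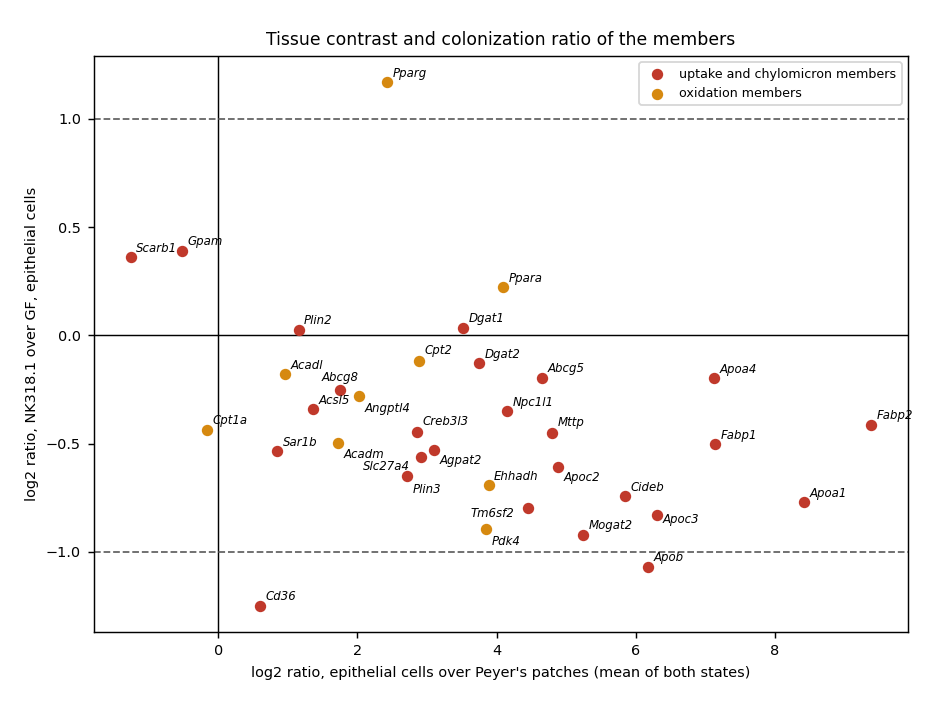
Log2 ratio of IEC over PP, as the mean of both states (x axis), against the log2 ratio of NK318.1 over GF in IEC (y axis), 1 point per gene, with uptake and chylomicron genes in red, oxidation genes in orange and 2-fold as dashed lines. The 8 genes with a log2 contrast between the tissues over 5 lie from Apob (−1.07) to Apoa4 (−0.20), Cd36 (−1.25) is lowest of all at a contrast of 0.60, and centring on enterocyte markers would move each point up by 0.68.

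Other genes of fat absorption had a median nearer to that of all genes. A list of 51 further genes of lipid uptake, esterification, droplets and the secretory route had 47 annotated and 43 measured in IEC. Of the 43, 0 were past 2-fold in either direction, and the median log2 ratio was −0.06. At least 1.5-fold lower were 7 (16.3%), beside 6.8% of all measured genes. Lowest was Gpat3, a glycerol phosphate acyltransferase, with 104 in NK318.1 IEC and 196 in GF IEC (−0.91). Sec23a and Sec24d, components of the COPII coat with which Sar1b acts, followed at −0.88 and −0.87, as did Apoe at −0.88. Mgll, the lipase that splits monoglycerides, was highest, with 66.8 in NK318.1 IEC and 42.4 in GF IEC (0.66). In PP 0 of 41 were past 2-fold, the median was −0.06, and Apoe, which macrophages make, had 1087 in NK318.1 PP and 1965 in GF PP (−0.85). The macrophage markers were lower too, with 8 of 8 below 0 in PP, 3 of them at least 1.5-fold lower, a median of −0.48 and sums of 5089.8 in NK318.1 PP and 6434 in GF PP, and their part in this value was not tested. On the enterocyte scale the epithelial ratios of this list lie 0.68 higher.

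Among 45 further genes of fatty acid oxidation, 38 were annotated and 35 measured in IEC. Of the 35, 27 lay below 0, beside 47.6% of all measured genes, and the median log2 ratio was −0.23. At least 1.5-fold lower were 5 of them (14.3%), beside 6.8% of all measured genes. They include Vnn1, Hsd17b4 (−0.82), a peroxisomal enzyme, and Slc22a5 (−0.72), the carnitine transporter. The rest were Etfdh (−0.72), which passes electrons from the dehydrogenases to ubiquinone, and Crot (−0.71), the carnitine octanoyltransferase. Of the 5 only Vnn1, a pantetheinase that PPARα induces in liver, was past 2-fold, with 164 in NK318.1 IEC and 580.5 in GF IEC (−1.82). None was at least 2-fold higher, and the highest was Ppargc1b, a coactivator of mitochondrial genes, with 742 in NK318.1 IEC and 395 in GF IEC (0.91). In PP 0 of 32 were past 2-fold and the median was −0.09. On the enterocyte scale the epithelial ratios lie 0.68 higher here too.

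**Figure D4:**
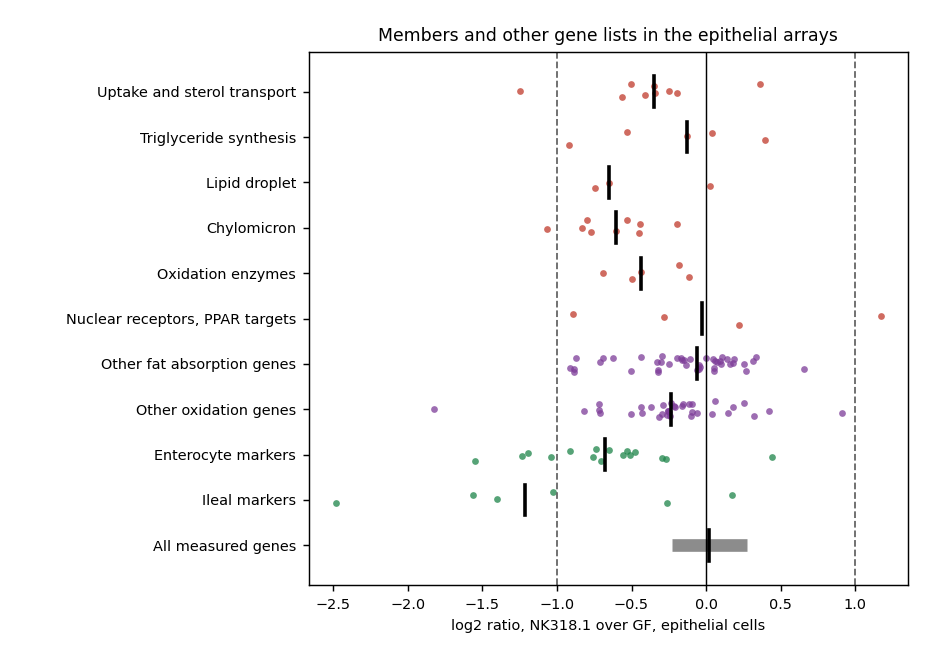
Log2 ratio of NK318.1 over GF in IEC (x axis) for each role of the set (red), other genes of the pathways (purple), enterocyte and ileal markers (green), 1 point per gene, with medians as black bars, quartiles of all measured genes as a grey bar and 2-fold as dashed lines. The medians of the chylomicron genes (−0.61) and of the enterocyte markers (−0.68) lie close together, and centring on the enterocyte markers would move each point up by 0.68.

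Markers of other cells and tissues also differed between the epithelial pools. The 6 ileal markers had a summed signal of 3098 in NK318.1 IEC and 6891 in GF IEC, 4 of them were at least 2-fold lower, and Fabp6, the ileal bile acid-binding protein, had 718 in NK318.1 IEC and 4002 in GF IEC (log2 ratio −2.48). Muc13, the 1 gene of this list above 0 (0.17), gave 1846 of the sum in NK318.1 IEC and 1640 of that in GF IEC. Markers of pancreatic acinar cells were at least 2-fold higher in 9 of 9, with sums of 11976 in NK318.1 IEC and 1476 in GF IEC. Gastric markers were at least 2-fold higher in 8 of 8, with sums of 35865 in NK318.1 IEC and 399 in GF IEC. The part of these differences in the ratios of the fat absorption and oxidation genes was not tested. Lymphocyte markers summed to 426 in NK318.1 IEC and 990.1 in GF IEC with 4 of 9 at least 2-fold lower and a median of −0.70. Macrophage markers summed to 590.2 in NK318.1 IEC and 1608 in GF IEC, of which Lyz2 alone had 298 in NK318.1 IEC and 1265 in GF IEC. It was the 1 marker of 7 at least 2-fold lower, 3 of 7 lay above 0 and the median was −0.20. Fibroblast markers summed to 1229 in NK318.1 IEC and 401 in GF IEC, with 4 of 6 at least 2-fold higher. Adipocyte markers summed to 183 in NK318.1 IEC and 208 in GF IEC, with Adipoq and Lep under the floor on all 4 arrays, beside the higher Pparg signal. Endothelial markers summed to 234 in NK318.1 IEC and 162 in GF IEC, beside the lower signal of Cd36, which endothelial cells and macrophages also express.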

How the data were processed

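RNA of each group was hybridized to 1 Affymetrix 3′ array. The authors deposited a linear intensity per probe set made with MAS5, per the submitters' processing notes. For MAS5, version and settings were not given in the sources used here, and a scaling between arrays before deposit cannot be told from the values. The methods also name R and limma, whose adjusted p needs replicates. Depth has no meaning for arrays, and their number, 4, limits the precision. The pools allow no spread between mice, and 1 array per group was used as it stands.

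Deposited intensities were not scaled again, and 64 control probe sets were set aside. Of 45037 probe sets 34945 named 1 gene, 932 named several and were left out, and 9160 named none. Where a gene had several probe sets, the one brightest on average over the 4 arrays on the log2 scale was its main probe set. The floor of 15.5 came from the 40th percentile of each array, as the median of the 4. All 35 genes were named. Of the other pathway genes those past 2-fold were named, and Gpat3, Sec23a, Sec24d, Apoe, Mgll, Ppargc1b, Hsd17b4, Slc22a5, Etfdh and Crot were chosen after their values were seen. The genes and lists were chosen with earlier results of these data known.

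Alternatives were median centring, quantile normalization, floors at the 25th and 60th percentile, no floor, the mean over probe sets, leaving out less specific probe sets (names ending in _x_at, _s_at or _a_at, which held for 8 of the 35 main probe sets), a 1.5-fold and a 4-fold limit, and centring on enterocyte markers. The steps were tested on simulated data, with changes wider than any NK318.1 over GF ratio of the 35 genes and less noise than between probe sets. That test does not bear on finding smaller changes. Promoter windows were from RefSeq. Python 3.11.15, numpy 2.4.6, pandas 2.3.3 and matplotlib 3.10.9 were used.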

Additional observations from a re-analysis of the deposited data

How the results depend on the processing

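Of 124 values of the counts and medians under an alternative, 114 stayed within 1.5 times the count or within the spread of probe sets. Centring on enterocyte markers gave 2 uptake and chylomicron genes at least 2-fold higher in the epithelial cells (Gpam and Scarb1) in place of 0, gave 0 at least 2-fold lower in place of 2, and moved the medians to 0.20 for uptake and chylomicron genes and 0.40 for oxidation genes. It changed the sign of 20 of 35 ratios. The mean over probe sets also left 0 uptake and chylomicron genes at least 2-fold lower. A limit of 1.5-fold gave 9 lower uptake and chylomicron genes and 2 lower oxidation genes, and a limit of 4-fold gave 0 lower and 0 higher. Leaving out less specific probe sets removed Pparg, so 0 oxidation genes were at least 2-fold higher. Quantile normalization changed the sign of 1 epithelial and 2 Peyer's patch ratios. No paired analysis was possible because there was 1 array a group. With 1 pool per group the spread between mice is unknown, and signals near the floor, such as those of Scarb1 in the epithelial cells, are the least precise.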
